A study of Mus musculus with 4 samples.

Results

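The 10 genes described here make, load or carry the peptides that MHC class I shows to CD8 T cells. They are the heavy chains H2-K1 and H2-D1 and their light chain B2m, the peptide transport, loading and trimming genes Tap1, Tap2, Tapbp and Erap1, and the immunoproteasome subunits Psmb8, Psmb9 and Psmb10. They were chosen by name for these roles, with earlier results of these data known. All 10 were found among the 23366 gene symbols counted. RNA was sequenced from medullary thymic epithelial cells (mTECs) of wild-type C57BL/6 mice aged 6 to 8 weeks, in 2 pools from females and 2 pools from males. Each pool held the cells of 10 mice, sorted as PI- CD45- MHCII+ Ly51low, and the labels tell the groups apart by sex only. The comparison asks whether these genes differ between male and female mTECs.

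In the class I pathway, the proteasome cuts cytosolic proteins into peptides. The Tap1 and Tap2 transporter moves the peptides into the endoplasmic reticulum, Erap1 trims them there, and tapasin, the product of Tapbp, holds empty class I molecules beside the transporter while they are loaded. Psmb8, Psmb9 and Psmb10 replace the constitutive catalytic subunits Psmb5, Psmb6 and Psmb7, which changes the peptides that are cut. Interferon gamma, through factors that include Irf1 and the transactivator Nlrc5, is known to raise the chosen class I, loading and immunoproteasome genes. In the thymic medulla, class I peptides delete CD8 thymocytes that recognize self, and cortical epithelium has its own proteasome subunit, Psmb11.

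The pools had between 1976272 and 7103627 reads counted on genes. Levels are given as normalized CPM, which scales the counts to library size and, by TMM factors, to library composition, and as RPKM, which divides the normalized CPM by the summed exon length in kilobases. The sexes were told apart as labelled, since Ddx3y on the Y chromosome was counted 445 and 89 times in male pools 1 and 2 and 0 times in females. Blood cell transcripts were present in every pool despite the CD45- gate. Ptprc, which encodes CD45, had between 179.6 and 304.2 normalized CPM, above Epcam (36.97 to 51.6) and Aire (19.3 to 31.67). Per length the gap to Epcam was smaller. Ptprc was at 30.89 to 52.3 RPKM, Epcam at 18.12 to 25.29 and Aire at 5.05 to 8.28. Class I genes are also expressed by blood cells, and in these bulk samples more cells of a type and more RNA per cell cannot be told apart. The B cell and the dendritic cell and macrophage markers described below each summed to more than the epithelial markers in every pool. The labels of all 4 pools carry the same preparation tag, but they do not say whether the pools were sorted or prepared together. The p-values measure only the spread between these pools of 10 mice.

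The promoters of H2-K1, H2-D1 and B2m are shown because these genes encode the chains of 1 molecule and are compared with each other below. The sequences are from RefSeq on GRCm38.p6, on the strand of the gene. H2-K1 has 2 annotated starts, and its stretch ends before the downstream start but runs past the upstream one, whereas those of H2-D1 and B2m end before the start. Capitals mark matches, on either strand, to the NF-kB consensus, to the interferon regulatory factor core AANNGAAA, to TGACG, a core shared by the CRE and the X2 box, and to CCAAT. The H2-K1 stretch is chr17:34000334-34000468 (minus strand), the H2-D1 stretch is chr17:35262913-35263055 (plus strand) and the B2m stretch is chr2:122147540-122147648 (plus strand).
H2-K1: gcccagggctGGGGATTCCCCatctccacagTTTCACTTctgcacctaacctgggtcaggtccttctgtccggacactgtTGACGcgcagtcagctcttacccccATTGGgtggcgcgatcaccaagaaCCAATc
H2-D1: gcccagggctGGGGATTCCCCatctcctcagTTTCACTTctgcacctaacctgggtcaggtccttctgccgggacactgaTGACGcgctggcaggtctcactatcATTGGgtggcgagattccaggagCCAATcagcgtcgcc
B2m: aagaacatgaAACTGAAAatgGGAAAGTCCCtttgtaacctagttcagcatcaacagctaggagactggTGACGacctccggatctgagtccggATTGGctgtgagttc
Each of the 3 stretches holds a match to all 4 motifs. In all 3, TGACG is followed by ATTGG, the reverse complement of CCAAT, with 25 bases from the start of one to the start of the other. That pair was seen in the sequences first and then counted, and 31 of the 32851 RefSeq promoter windows of 300 bases (0.0944%) held it. From the first to the last capital, the H2-K1 and H2-D1 stretches had the same base in 108 of 124 aligned columns (87.1%). Promoters of 9 of the 10 genes were matched by symbol (Tap2 was not). The NF-kB consensus was found in 3 of these 9 genes and in 5.81% of all windows, AANNGAAA in 4 genes and 23.9%, TGACG in 5 genes and 20.8%, and CCAAT in 6 genes and 37.4%. The RefSeq windows of Psmb8 and Psmb10 held no match to any of the 4 motifs, and other possible starts of these 2 genes were not searched. Tap1 and Psmb9 lie head to head, with 226 bases between their RefSeq starts, so their windows share 275 bases.

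Transcripts of the class I chains were among the most abundant of the sorted cells. B2m had 9814, 8003, 6872 and 16450 RPKM in female pool 1, female pool 2, male pool 1 and male pool 2. Its mean of 10290 ± 4287 RPKM (SD, n = 4 pools) was the 6th highest among the 10309 tested genes with a length. H2-K1 had 2621, 2036, 1957 and 1641 RPKM in the same order of pools and ranked 34. H2-D1 had 1583, 1302, 1216 and 1254 RPKM and ranked 58. H2-K1 was above H2-D1 in every pool, and B2m was above both in every pool. Together the 10 genes took between 1.95% and 2.31% of the reads counted on genes.

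The immunoproteasome subunits followed. Psmb8 had 355.6, 475.1, 325.6 and 526.6 RPKM in female pools 1 and 2 and male pools 1 and 2. Psmb10 had 167.6, 247.4, 153.9 and 289.8 RPKM, and Psmb9 had 112.6, 167.7, 94.67 and 235.5 RPKM. For each of the 3, male pool 2 was highest, then female pool 2, female pool 1 and male pool 1.

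Of the loading genes, Tapbp lay among the immunoproteasome subunits and Tap2, Tap1 and Erap1 below them. Tapbp had 170.4, 205.7, 141.6 and 137.2 RPKM, Tap2 had 63.77, 76.17, 56.59 and 49.08, and Tap1 had 41.9, 56.39, 38.42 and 41.91. Female pool 2 held the highest level of all 3. Erap1 was the lowest of the 10 genes at 12.5, 7.09, 12.7 and 6.43 RPKM, from 215, 67, 497 and 78 counts, and ranked 3945. In the order of mean levels, Psmb10, Tapbp and Psmb9 had ranges over the 4 pools that overlapped, as had Tap2 and Tap1, whereas the ranges of B2m, H2-K1, H2-D1 and Psmb8 were apart from each other. These levels depend on the length used. With the longest protein-coding transcript, chosen after the data were seen, Psmb9 had a mean of 413.5 in place of 152.6 RPKM and Tap1 had 82.81 in place of 44.65, so Psmb9 came above Psmb10 and Tap1 above Tap2.

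**Figure D1:**
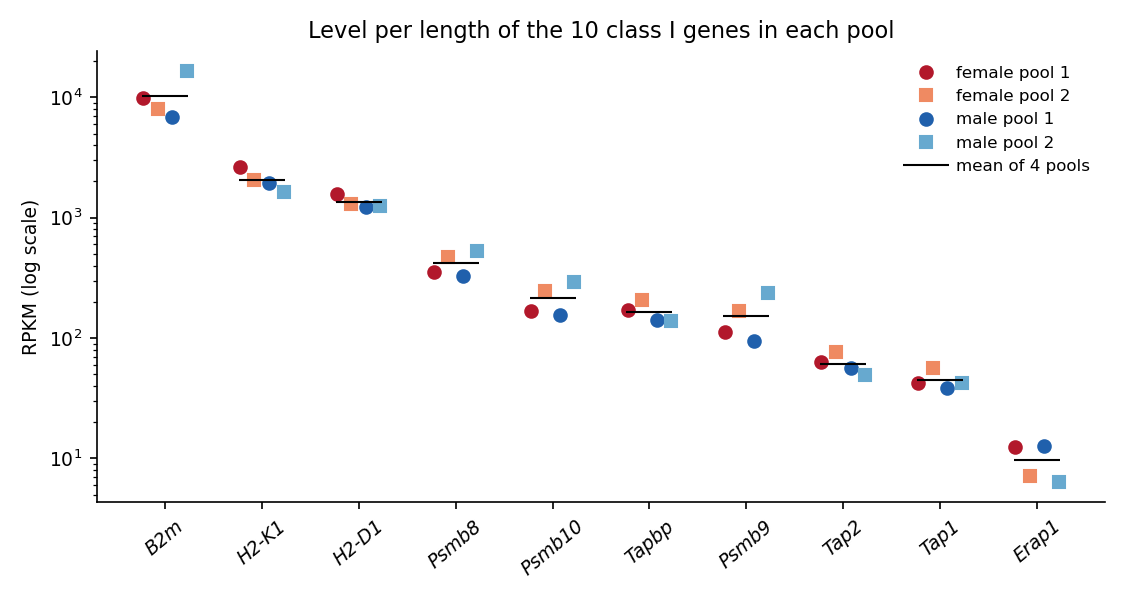
Level of each gene in RPKM, on a log axis, in each of the 4 pools (points) with the mean over pools (line), ordered by the mean. Levels ran from a mean of 10290 RPKM for B2m to 9.68 for Erap1, and the 3 immunoproteasome genes were higher in both pools numbered 2 than in the pools numbered 1.

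Between the sexes, no gene of the 10 passed an adjusted p of 0.05. This was tested with edgeR's quasi-likelihood test on the counts, with Benjamini-Hochberg adjustment over 10865 genes, of which 0% passed. The adjusted p was 1 for each of the 10 genes, and 0 of them had an unadjusted p under 0.05, against 0.442% (48) of all genes tested. Ddx3y, counted in male pools only, did not pass this quasi-likelihood test either, at a log2 ratio of 10.5 and an adjusted p of 0.186. With 2 pools a sex, a p above the threshold thus does not show that the sexes are alike. The log2 fold changes of male over female of the 10 genes had a median of -0.13, with 6 below 0 and 4 above 0. Their standard errors (SE) ran from 0.37 to 0.61, and all tested genes had a median log2 fold change of 0.03.

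The heavy chains, Tap1, Tap2 and Tapbp had log2 ratios below 0, none past the test. H2-K1 had 6835 and 5309 normalized CPM in females against 5104 and 4280 in males, with no overlap between the sexes. Its log2 ratio was -0.37 (SE 0.50). H2-D1 had 4098 and 3370 normalized CPM in females and 3146 and 3246 in males, a log2 ratio of -0.22 (SE 0.48). Tap2, the second half-transporter, had 241.1 and 288 against 214 and 185.6, a log2 ratio of -0.40 (SE 0.37). Tapbp had 562.1 and 678.4 against 466.9 and 452.4, a log2 ratio of -0.43 (SE 0.40). In these 4 genes both male pools were below both female pools (11.7% of all genes tested). With library size only, chosen after the data were seen, the sexes overlapped for H2-K1 and H2-D1, and 2 of the 10 genes (Tap2 and Tapbp) had both male pools below, against 8.99% of all genes. Both male pools were above both female pools in 0 of the 10 genes and in 9.47% of all genes. Male pool 2 was the lowest of the 4 pools for H2-K1, Tap2, Tapbp and Erap1, and for 35.6% of all genes. Pools of the sexes did not overlap, in either direction, for 21.2% of all genes. Tap1 had 229.4 and 308.8 normalized CPM in females and 210.4 and 229.5 in males, so the pools of the sexes overlapped, at a log2 ratio of -0.29 (SE 0.38). B cell and thymocyte markers also had log2 ratios of 1 sign within each list, but this depended on the pools kept. The 7 B cell genes tested were all below 0 in males, at a median log2 ratio of -0.28. Below 0 were 3 of 7 without female pool 1 and 2 of 8 without male pool 2. Both male pools were below both female pools in 0 of the 7 (11.7% of all genes tested). The 9 thymocyte genes tested were all above 0 (median 1.10), and 5 of 9 without male pool 1 (median 0.44). Both male pools were above both female pools in 4 of the 9 (9.47% of all genes). None of these genes passed the same test with all 4 pools (0 B cell and 2 thymocyte genes had an unadjusted p under 0.05 in edgeR's fit), and their part in the levels of the class I genes was not tested.

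B2m, Erap1 and the immunoproteasome genes had log2 ratios of either sign, depending on the pool left out. B2m had 8440 and 6882 normalized CPM in females and 5910 and 14150 in males, so that the male pools lay on either side of both female pools. Its log2 ratio was 0.39 (SE 0.61), and -0.37 without male pool 2. Psmb8 was at 0.04, Psmb9 at 0.24 and Psmb10 at 0.10, at -0.34, -0.56 and -0.42 without male pool 2, and at -0.16, -0.02 and -0.16 without female pool 1. Erap1 was at -0.03, at -0.64 when male pool 1 was left out and at 0.44 when female pool 1 was left out. Of the 10 genes, 9 were below 0 without male pool 2 (50.6% of all genes tested in that fit), 8 without female pool 1 (43.8%), and 6 without female pool 2 (45.8%) or male pool 1 (53.0%), against 6 with all pools (46.8%).

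**Figure D2:**
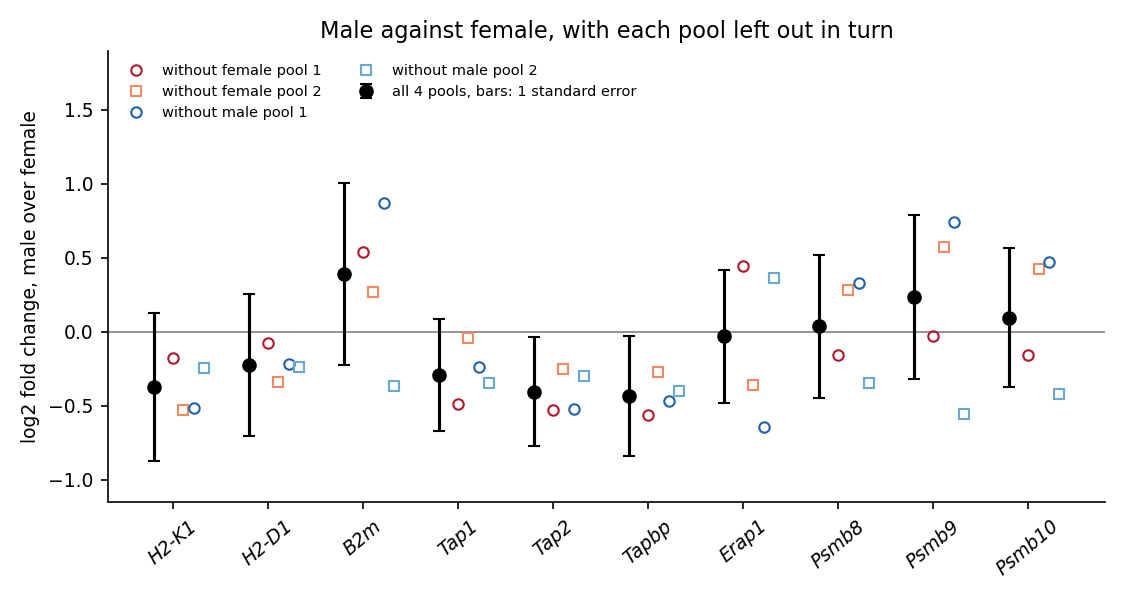
Log2 fold change of male over female for each gene from all 4 pools (black, bars of 1 standard error) and with each pool left out in turn (open symbols). H2-K1, H2-D1, Tap1, Tap2 and Tapbp lie below 0 in each of these fits, while B2m, Psmb8, Psmb9 and Psmb10 lie below 0 without male pool 2.

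Within each sex the 10 genes differed between pools in both directions. Psmb9 was 1.49-fold higher in female pool 2 than in female pool 1 and 2.49-fold higher in male pool 2 than in male pool 1. The same ratios were 1.48 and 1.88 for Psmb10 and 1.34 and 1.62 for Psmb8. Erap1 went the other way, at 0.567 in females and 0.506 in males. H2-K1 was at 0.777 and 0.839. B2m was at 0.815 in females and 2.39 in males, where H2-D1 was at 0.823 and 1.03. In the male pools, 4 of the 10 genes were over 1.5-fold higher in pool 2 (25.1% of all genes tested) and 1 was over 1.5-fold lower (23.1%). In the female pools the counts were 0 (15.5%) and 1 (14.6%). These ratios were not tested. The scaling bears on the male ratios, because with library size only they were 1.58 for B2m, 1.64 for Psmb9, 1.24 for Psmb10, 1.07 for Psmb8, 0.553 for H2-K1, 0.572 for Tap2, 0.639 for Tapbp and 0.333 for Erap1. On that scale 2 of the 10 genes were over 1.5-fold higher in male pool 2 (12.8% of all genes) and 4 were over 1.5-fold lower (54%).

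Transcript length moved with the same ratios across all genes. Of the tested genes with a coding transcript under 1000 bases, 654 in number, the median ratio of pool 2 over pool 1 was 2.84 in males and 1.40 in females. It was 1.07 and 1.11 for 2169 genes of 1000 to 2000 bases, 0.841 and 0.981 for 4213 genes of 2000 to 4000 bases, and 0.895 and 0.875 for 3053 longer genes. B2m, with a transcript of 860 bases, lay below the median of its length class in both sexes. Psmb8, Psmb9 and Psmb10, of 1628, 1351 and 1270 bases, lay above theirs in both sexes, and H2-K1, of 1605 bases in the same class, lay below. Tap1, Tap2 and Tapbp lay above the median of theirs in both sexes, and Erap1, of 4673 bases, lay below its class. H2-D1, of 2102 bases, lay below its class in females (0.823 against 0.981) and above it in males (1.03 against 0.841). The part of transcript length in these ratios was not tested.

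**Figure D3:**
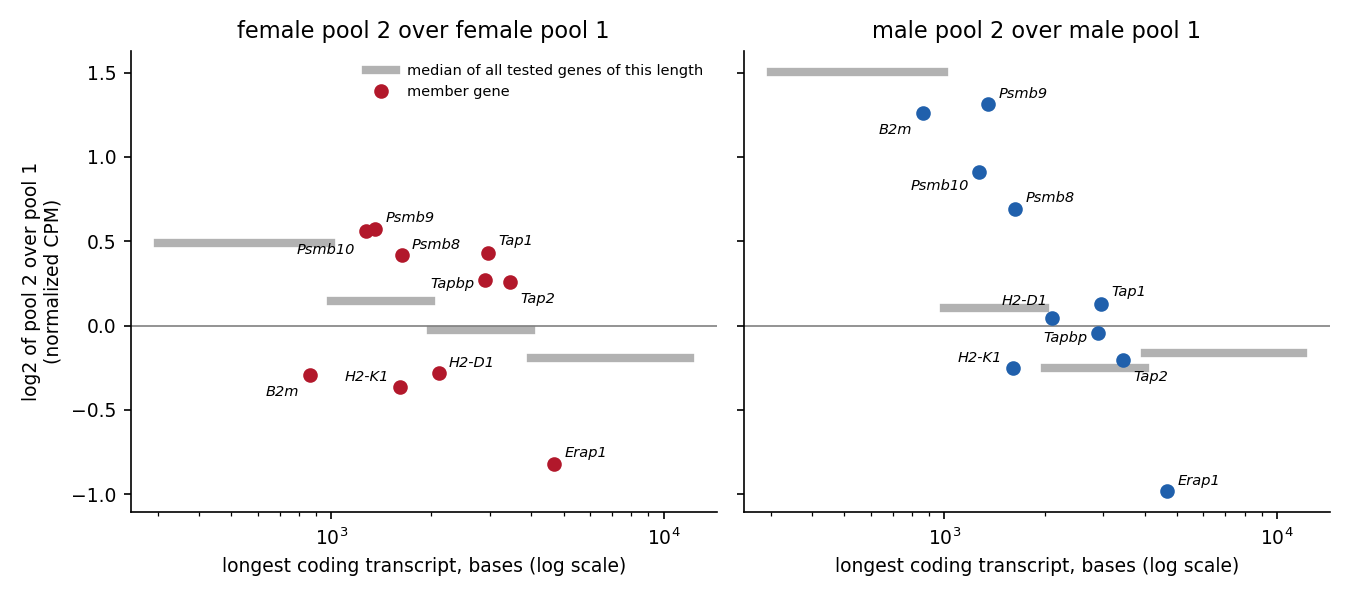
Log2 ratio of normalized CPM in pool 2 over pool 1 against the length of the longest coding transcript in bases (log axis), for females (left) and males (right). Points are the 10 genes and grey lines the medians of all tested genes in 4 length classes; the 3 immunoproteasome genes lie above the line of their class in both sexes and Erap1 and H2-K1 below.

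Markers of blood cells moved with the pool number as well. The summed level of 11 dendritic cell and macrophage genes, such as Lyz2 and Flt3, was 2393 and 3878 normalized CPM in female pools 1 and 2 and 1816 and 5309 in male pools 1 and 2. Lyz2, Bst2 and Flt3 were the most abundant of them. In pool 2 over pool 1, 9 of the 11 were over 1.5-fold higher in males and 5 in females. Lyz2 made up 2397 of the sum in female pool 2 and 3327 in male pool 2. Flt3 was at 0.769 in females and 1.28 in males, Siglech was lower in pool 2 of both (0.706 and 0.696) and Emr1 was at 0.962 in females. The 8 B cell genes, led by Cd79a and Cd79b, summed to 4571 and 3015 in females and to 3776 and 2514 in males, lower in pool 2 of both. The 10 epithelial genes, led by Spint2, Krt8 and Krt18, summed to 377 and 654.7 in females and 420.1 and 621.5 in males. Of these, Cdh1 was lower in pool 2 of both sexes (0.76 and 0.55) and Krt14 in males (0.841). Ptprc was also lower in pool 2 of both sexes (0.642 and 0.72). Psmb8, Psmb9 and Psmb10 were thus high in the same pools as the summed dendritic cell and macrophage genes and the summed epithelial genes. They were low in the pools where the summed B cell genes were high. The 8 mTEC genes, led by Cd40, Cd86 and Cd80, which antigen-presenting blood cells also express, summed to between 675.3 and 753.2 in all 4 pools, with Ccl21a at 0 counts. Most of that sum was Cd40 and Cd86. In pool 2 over pool 1, Aire, Fezf2 and Tnfrsf11a, at lower levels, were at 1.64, 3.87 and 1.76 in females. They were at 1.47, 1.59 and 1.63 in males, higher in pool 2 as were the immunoproteasome genes. Cd40 changed less, at 1.04 in females and 1.14 in males. Cd86 was lower in pool 2 of both sexes (0.856 and 0.885), and Cd80 was at 0.736 in females and 1.29 in males. Ccl19 had at most 4 counts in a pool. The 10 thymocyte genes summed to 424.9, 339.5, 1163 and 441.6. The 7 cortical epithelial genes summed to between 69.89 and 101.7. The 5 endothelial genes summed to between 18.1 and 29.51, with Emcn, 1 of them, at 0 counts. The 6 fibroblast genes summed to 12.23 and 46.02 in females against 69.42 and 78.55 in males. The 5 neutrophil genes summed to 29.63 and 17.32 in females against 83.75 and 32.34 in males. The part of these cells in the levels of the class I genes was not tested.

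Ratios within a pool do not depend on library size. H2-K1 over B2m, in RPKM, was 0.267 and 0.254 in females, 0.285 in male pool 1 and 0.0997 in male pool 2. H2-D1 over B2m was 0.161, 0.163, 0.177 and 0.0762. The heavy chains thus kept nearly the same proportion to the light chain in 3 pools, and male pool 2, where B2m was highest, stood apart. B2m lies in the class of shortest transcripts, which as a whole was higher in male pool 2, and the part of length in this ratio was not tested. H2-K1 over H2-D1 was 1.66, 1.56, 1.61 and 1.31. Tap1 over Tap2, which form 1 transporter together, was 0.657, 0.74, 0.679 and 0.854.

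The immunoproteasome subunits were compared with the constitutive subunits they replace. Psmb8 over Psmb5 was 1.28 and 1.59 in females against 1.14 and 1.23 in males. The sexes did not overlap, with a log2 difference of male minus female of -0.27 (SD 0.22 in females and 0.08 in males, n = 2 pools each). Psmb9 over Psmb6 was 0.538 and 0.728 in females and 0.45 and 0.668 in males, a log2 difference of -0.19. Psmb10 over Psmb7 was 1.71 and 2.88 in females and 1.58 and 2.76 in males, a log2 difference of -0.09. By an exact permutation test, two-sided, p was 0.333 for Psmb8 over Psmb5 and 0.667 for the other pairs, and 0.667 for each after adjustment over the 3 pairs. With 2 pools against 2, the smallest p possible is 0.333, so this test cannot pass 0.05. Within each sex all 3 ratios were higher in pool 2. Psmb5, Psmb6 and Psmb7 have coding transcripts of 871, 798 and 1160 bases, and genes under 1000 bases had the highest median ratio of male pool 2 over male pool 1. Psmb11, the subunit of cortical epithelium, had 21.47 and 17.81 normalized CPM in females and 16.13 and 32.73 in males.

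**Figure D4:**
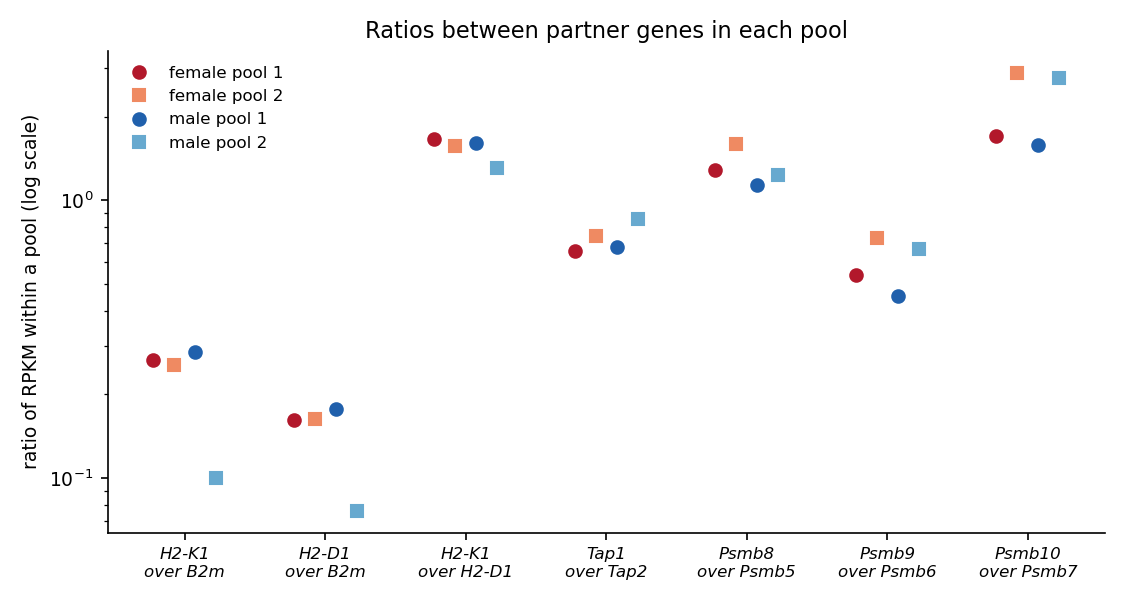
Ratios of RPKM between partner genes within each pool, on a log axis, with 1 point per pool. H2-K1 and H2-D1 over B2m are alike in 3 pools and lowest in male pool 2, and the ratios of immunoproteasome to constitutive subunits are higher in pool 2 than in pool 1 of each sex.

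Of 16 factors and receptors that control class I genes, 16 were tested, 0 passed an adjusted p of 0.05 and 0 had an unadjusted p under 0.05. Log2 fold changes of male over female were above 0 for 8 and below 0 for 8, with a median of -0.01. Nlrc5, the class I transactivator, had 72.58 and 68.78 normalized CPM in females and 58.9 and 80.86 in males, a log2 ratio of -0.02 (SE 0.33). Irf1 had 245.5 and 270.7 against 254.8 and 190.6, and the sexes overlapped (log2 ratio -0.21, SE 0.38). Irf8, a factor of dendritic cells and B cells, was the most abundant of the list on average, at 404.8 and 823.9 in females and 349.6 and 568.3 in males. The other interferon-linked factors Stat2 and Irf2 had log2 fold changes of 0.04 and -0.08, and the receptor genes Ifngr1, Ifngr2, Ifnar1 and Ifnar2 of 0.38, 0.16, 0.40 and 0.11. Rfx5, Rfxap and Rfxank, which encode the RFX complex that binds class I and class II promoters, were at 0.00, -0.07 and 0.01. Creb1, Rela and Nfkb1 were at 0.15, -0.36 and -0.43.

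Of 18 other genes of peptide generation and loading, 18 were tested and 0 passed, with 6 log2 ratios below 0, 12 above 0 and a median of 0.12. The most abundant were the chaperones Hsp90ab1 and Hsp90aa1 and the proteasome activator Psme2. Hsp90ab1 had 2045 and 2062 normalized CPM in females and 2166 and 2097 in males, a log2 ratio of 0.05. Hsp90aa1 had 1106 and 1101 against 1070 and 1782, at 0.37. Psme2, part of the activator that interferon adds to the proteasome, had 938.6 and 1240 against 752.1 and 2053, at 0.36 (SE 0.59). Psme2 was thus in the same order over the pools as Psmb8, Psmb9 and Psmb10, and 2.73-fold higher in male pool 2 than in male pool 1. That order was not particular to them. Sec61b and Sec61g of this list had it too, at 4.52-fold and 6.07-fold, as did the macrophage marker Lyz2. In this list 8 of 18 genes were over 1.5-fold higher in male pool 2 and 6 over 1.5-fold lower (25.1% and 23.1% of all genes tested). The constitutive subunits and Psmb11 were tested as well, and 0 of 4 passed, with log2 fold changes of 0.31 for Psmb5, 0.36 for Psmb6, 0.14 for Psmb7 and 0.28 for Psmb11.

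The other class I heavy chain and class I-like genes numbered 25, of which 20 had a count and 16 were tested. Of these, 15 were below 0 in males and 1 (Hfe, an iron regulator of the class I family, at 0.44) was above 0, where 46.8% of all genes tested were below 0. The median log2 ratio was -0.40, and -0.12 without female pool 1. Also 15 were below 0 with upper-quartile factors, median-of-ratios factors and library size only, and 15 of 20 with no filter (median -0.29) and 15 of 19 with over 1 CPM in 2 pools. With a pool left out, between 12 and 14 of the 16 or 17 genes tested were below 0, and without male pool 2 the median was -0.26. No gene of the list passed an adjusted p of 0.05 and 0 had an unadjusted p under 0.05, while both male pools were below both female pools in 5 of the 16, against 11.7% of all genes. H2-T23, which encodes the nonclassical Qa-1, was the most abundant at 828.5 and 722 normalized CPM in females and 628 and 649.9 in males, a log2 ratio of -0.28 (SE 0.41). H2-M2 had 224.3 and 415.2 against 126.9 and 337.7, at -0.46 (SE 0.58), and H2-Q4 had 300.1 and 157.9 against 203.4 and 132.5, at -0.45 (SE 0.46). H2-Q2, chosen after its values were seen, had 130.2 and 57.9 against 75.51 and 35.81, and it passed only when male pool 1 was left out, at a log2 ratio of -1.42 and an adjusted p of 0.023 (edgeR's quasi-likelihood test, 4 fits with a pool left out). In that fit 5.72% of all genes passed, and the spread came from the 2 female pools, with 1 male pool assumed to vary alike. H2-Q6, H2-Q7, H2-Q9, H2-T9 and H2-M9 had 0 counts in all 4 pools. Reads that aligned to several copies were not counted, so these 0 counts do not show that the genes were silent.

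Values of the class I genes are uncertain where copies share sequence, because reads with several alignments were not counted on genes. Of the 50-base windows of the longest coding transcript, 15.1% (309 of 2053) for H2-D1 and 8.87% (138 of 1556) for H2-K1 occurred again elsewhere in the genome or in another transcript, most often in H2-Q6 and in each other. The share was 2.53% for Tapbp, 0.861% for Tap1 and 0.737% for Tap2, and 0% for the other 5 genes. In NCBIM37, the assembly also called mm9, H2-K1 lies on chromosome 17 from 34132962 to 34137278 and H2-D1 from 35399675 to 35404444. Psmb9 (34318932 to 34324709, minus strand), Tap1 (34324498 to 34334170), Psmb8 (34334666 to 34338399) and Tap2 (34340472 to 34353266) follow each other on the same chromosome. Tap1 and Psmb9 share 212 exonic bases on opposite strands, and 18.5% of the exonic bases of Tap2 lie under models on the opposite strand. Whether reads were counted by strand is not given in the sources used here, so values in these overlaps are uncertain. Tapbp lies at 34052844 to 34066235 on chromosome 17, B2m on chromosome 2 (121973422 to 121978819), Erap1 on chromosome 13 (74777320 to 74829983) and Psmb10 on chromosome 8 (108459628 to 108462292).

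Genes whose pattern over the 4 pools was nearest to the mean of the 10 genes were Auh, Wdr81, Luzp1, Myo10 and Fblim1. Likeness was the largest difference from that mean in any pool, on the scale of log2(normalized CPM + 1) centred on each gene, and it was 0.022 for Auh and 0.041 for Fblim1. With only 4 pools such likeness is common, and 737 tested genes lay within 0.2 in every pool.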

How the data were processed

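RNA of 4 pools of sorted mTECs (2 female, 2 male, 10 mice each) was sequenced from SMARTer cDNA libraries. The authors removed low-quality reads with Trimmomatic, aligned to mm9 with TopHat2 and made the deposited counts per gene with HTSeq, without normalization. Tool versions, annotation and strand setting are not given in the sources used here. Unassigned reads (66.9% to 70.2% of the reads in a pool's table) were left out. All 4 pools differed from each other beyond sampling noise (lowest chi-square per degree of freedom 10.1).

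Males were compared with females by edgeR 4.0.16 (quasi-likelihood, TMM, filterByExpr with a minimum count of 10, prior count 0.125, Benjamini-Hochberg at 0.05, two-sided) in R 4.3.3, on 10865 genes and tested on simulated data. The common biological coefficient of variation was 0.349. A standard error is the log2 fold change over the square root of F. DESeq2 1.42.0, SciPy 1.17.1, pandas 2.3.3, matplotlib 3.10.9 and Python 3.11.15 were also used. Lengths came from the NCBIM37 annotation, which held 90.9% of the symbols.

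The 10 genes and all lists were chosen with earlier results of these data known. Named are the 10 genes, all listed regulators and constitutive subunits, the 3 most abundant of each other list, any listed gene past the threshold, and the 5 nearest in pattern, except that some listed genes are not reported here by name. Alternatives were upper-quartile, median-of-ratios or no composition factors, no filter, over 1 CPM in at least 2 pools, DESeq2, edgeR's exact test, pool number as a block, a prior count of 2, other lengths and each pool left out. Transcript length classes, the promoter pair and the longest coding transcript were chosen after the data were seen.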

Additional observations from a re-analysis of the deposited data

How the results depend on the processing

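None of the 10 genes passed an adjusted p of 0.05 in any of the 8 other settings or the 4 fits without a pool. The median log2 fold change of the 10 genes stayed between -0.21 and -0.12 over 9 settings that kept all pools, and ran from -0.34 to -0.15 with a replicate left out, the former without male replicate 2. With library size only, Psmb8 was at -0.11 and Psmb10 at -0.076, below 0 in place of above. With a replicate left out, log2 fold changes ran from -0.37 to 0.87 for B2m, from -0.64 to 0.44 for Erap1, from -0.34 to 0.33 for Psmb8, from -0.56 to 0.74 for Psmb9 and from -0.42 to 0.47 for Psmb10. The other 5 genes kept their direction in every setting. Over all genes, the number past the threshold was 0 by the quasi-likelihood test, 5 where library size alone was used, 26 without a filter, 3 by DESeq2, 8 with edgeR's exact test, and from 0 to 646 with a replicate left out (646 lacking male replicate 1, 70 lacking male replicate 2). The cause was not tested.

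With the pool number as a replicate block, 17 genes passed, none of them among the 10. The pool differences of the 2 sexes had a correlation of 0.52 across genes, but with 2 pairs the pools share only a number. The log2 difference of male minus female for Psmb8 over Psmb5 ran from -0.43 to -0.12 with a replicate left out, for Psmb9 over Psmb6 from -0.47 to 0.09 and for Psmb10 over Psmb7 from -0.49 to 0.32. With library size only, also chosen after the data were seen, 2 of the 10 genes in place of 4 had both male pools below both female pools, 2 in place of 4 were over 1.5-fold higher in male pool 2 than in male pool 1, and 4 in place of 1 were over 1.5-fold lower. By the longest coding transcript, chosen after the data were seen, 5 of the 10 genes kept their place in the order of levels.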
